A study of Mus musculus with 21 samples.

Results

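Long unmethylated valleys are stretches of at least 3000 bp in which the CpGs of mouse sperm DNA had low methylation. They were selected on depth, methylation level and length in a bisulfite table of sperm DNA, as autosomal runs of CpGs with 5 or more reads whose pooled level over the CpG and its neighbour on each side was under 50%. Consecutive CpGs of a run lay at most 500 bp apart, and a run needed 30 or more of them. This gave 636 valleys among 9272 CpG-rich regions of low methylation on the autosomes and 28849 regions of any size. The other 8636 CpG-rich regions were under 3000 bp and are called shorter regions here. Since depth, low methylation and length chose the valleys, those values are given as a description.

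The measured DNA came from C57BL/6 mouse sperm that had been gathered by a swim-up step, a way to enrich moving cells. Nucleosomes were freed with micrococcal nuclease, an enzyme that digests the DNA between them, so the library holds DNA that had stayed wrapped around histones (n = 1 library). The 20 other samples of the series, from sperm and round spermatids, were not analysed here. With 1 library there is no replicate and no test, and spreads are standard deviations (SD) over valleys or over the 19 autosomes. The table lists 15544856 CpGs with 60995624 CpG reads, a median of 3 reads per listed CpG, and its smallest count is 1, so a CpG with no read is missing from it. The number and age of the mice are not stated in the labels of this sample.

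In most mammalian cells CpGs are methylated except at CpG islands, which mark many gene starts. Long unmethylated stretches, also called methylation valleys or canyons, are known from other tissues to surround genes for regulators of embryonic development, many of which are held silent by Polycomb proteins. In sperm most histones are replaced by protamines, and nucleosomes that remain are known to be frequent at CpG-rich unmethylated DNA. Coverage, the mean number of reads per listed CpG, is the measure of recovered nucleosomal DNA here. CpGs above 19 reads were left out of it. In DNA pooled from many sperm, more cells with a nucleosome at a site and more efficient recovery of the DNA from each cell cannot be told apart.

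Genes were assigned by sequence. Each RefSeq promoter of GRCm38.p6, 250 bases before to 50 bases after a gene start, was placed where the spacing of its CpGs matched the listed CpGs at exactly 1 place. Of 14281 promoters with 10 or more CpGs, 10348 were placed once, and all but 1 of those fell on the chromosome that RefSeq gives. Promoters of the 4 longest valleys that hold a placed protein-coding promoter follow, and after them that of a ribosomal protein gene in a shorter region for contrast. CpGs, the positions at which methylation was read, are in capitals.

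Dmrta2: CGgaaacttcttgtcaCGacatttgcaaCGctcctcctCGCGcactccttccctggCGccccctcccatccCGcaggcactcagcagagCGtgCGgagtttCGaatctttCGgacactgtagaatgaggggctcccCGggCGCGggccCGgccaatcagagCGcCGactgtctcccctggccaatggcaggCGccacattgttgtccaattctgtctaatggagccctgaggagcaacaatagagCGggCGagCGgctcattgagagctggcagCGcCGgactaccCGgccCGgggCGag

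Pax9: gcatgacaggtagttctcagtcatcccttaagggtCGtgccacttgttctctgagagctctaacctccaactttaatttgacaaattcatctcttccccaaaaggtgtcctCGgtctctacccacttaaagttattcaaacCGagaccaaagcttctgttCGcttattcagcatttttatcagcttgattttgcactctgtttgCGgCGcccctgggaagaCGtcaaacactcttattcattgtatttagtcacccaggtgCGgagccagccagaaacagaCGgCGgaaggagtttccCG

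Olig2: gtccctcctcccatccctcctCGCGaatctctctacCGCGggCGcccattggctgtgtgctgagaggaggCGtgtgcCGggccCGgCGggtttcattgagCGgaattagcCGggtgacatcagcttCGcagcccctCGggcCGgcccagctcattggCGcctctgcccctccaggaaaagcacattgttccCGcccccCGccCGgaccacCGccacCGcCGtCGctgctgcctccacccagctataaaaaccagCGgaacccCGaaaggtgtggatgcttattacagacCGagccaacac

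Skor1: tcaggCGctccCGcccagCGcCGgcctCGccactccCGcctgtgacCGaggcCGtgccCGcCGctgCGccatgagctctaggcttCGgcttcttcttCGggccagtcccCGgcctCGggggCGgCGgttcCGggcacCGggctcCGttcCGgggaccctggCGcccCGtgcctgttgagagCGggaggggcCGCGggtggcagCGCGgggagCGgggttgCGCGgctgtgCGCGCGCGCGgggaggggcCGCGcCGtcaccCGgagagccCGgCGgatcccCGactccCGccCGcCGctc

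Rpl13a: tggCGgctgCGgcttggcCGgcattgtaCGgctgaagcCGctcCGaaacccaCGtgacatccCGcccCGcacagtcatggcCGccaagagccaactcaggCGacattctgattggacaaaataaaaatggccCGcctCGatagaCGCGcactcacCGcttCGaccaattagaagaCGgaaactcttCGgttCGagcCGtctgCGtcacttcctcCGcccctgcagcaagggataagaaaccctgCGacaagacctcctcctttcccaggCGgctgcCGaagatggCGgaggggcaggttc

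Positions are those of the table, on mm9, and each may be shifted by 1 bp because the table does not state where counting starts. The Dmrta2 promoter lies at chr4:109650380-109650679 on the plus strand. All 26 of its CpGs were listed, with 8.65 ± 2.61 reads each (SD over 26 CpGs), and 7 of 225 reads carried methylation. This is a level of 3.11% (1.52 to 6.28, 95% Wilson interval). The Pax9 promoter, at chr12:57796208-57796507 on the plus strand, is the sparsest of the 5, with 11 CpGs and a GC content of 47%, and 5 of 54 reads were methylated, or 9.26% (4.02 to 19.9). The Olig2 promoter, at chr16:91225545-91225844 on the plus strand, has 25 CpGs, and 7 of 167 reads were methylated, or 4.19% (2.05 to 8.4). The Skor1 promoter, at chr9:62996719-62997018 on the minus strand, has 46 CpGs, of which 45 were listed, and 10 of 375 reads were methylated, or 2.67% (1.45 to 4.84). The Rpl13a promoter, at chr7:52384066-52384365 on the minus strand, has 27 CpGs with 4.7 ± 1.79 reads each, and 0 of 127 reads were methylated, and 3 counts of that total set a limit of 2.36%. The intervals of the 4 valley promoters overlap, and only that of Pax9 lies wholly above that limit. The gene start lay 4004 bp from the nearer end of the region at Dmrta2, 3372 bp at Pax9, 4027 bp at Olig2 and 3052 bp at Skor1, against 1153 bp at Rpl13a. Intervals and limits cover counting error only.

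The longest valley, around Dmrta2, spanned 14619 bp on chromosome 4 from 109646626 to 109661244. Dmrta2 encodes a DM-domain transcription factor of the developing cerebral cortex. Its 666 listed CpGs had a mean of 5.89 ± 3.25 reads (SD over the 657 CpGs of up to 19 reads). The valley of Pax9, a paired box factor of tooth and thymus development, spanned 10534 bp and also held the start of the predicted gene Gm15524. The valley of Olig2, a bHLH factor of motor neurons and oligodendrocytes, spanned 10123 bp, and that of Skor1, a transcriptional corepressor of the SKI family, 9698 bp. The 5th, of 8667 bp on chromosome 5, had no promoter placed with 90% of its CpGs listed, and the start of the homeobox gene Msx1 lay in it with 75%. Of the next 5, the valley of 8648 bp held Hs3st3b1, a heparan sulfate sulfotransferase gene, and that of 8530 bp the forkhead gene Foxb2. No promoter was placed in the other 3, of 8437 bp and 8379 bp on chromosome 14 and 8393 bp on chromosome 5.

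**Figure D1:**
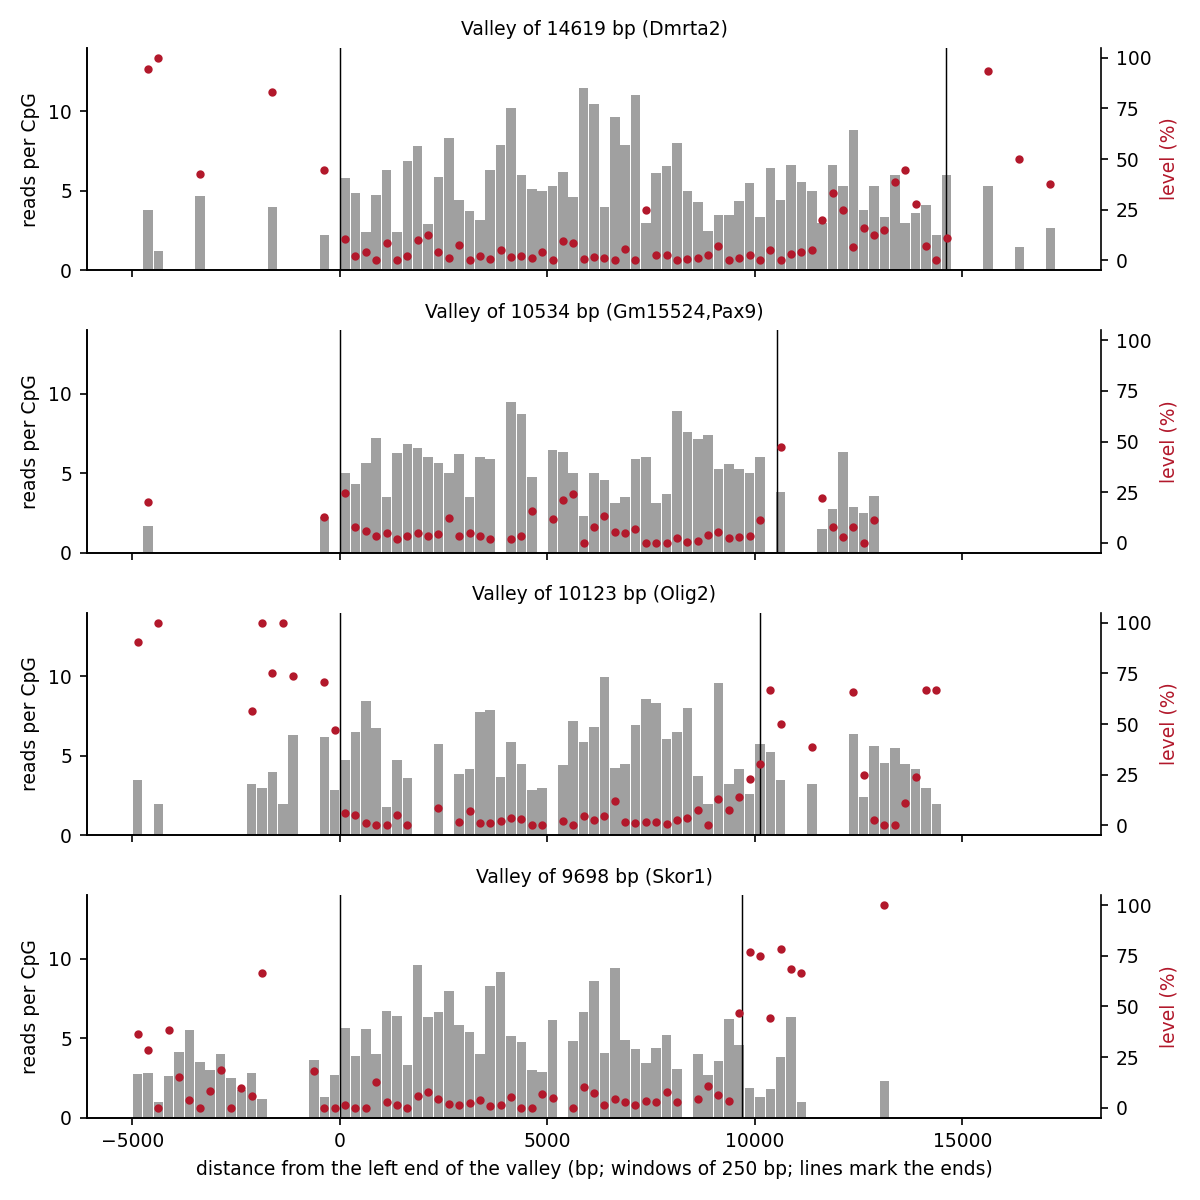
Coverage (grey bars, mean reads per listed CpG of up to 19 reads) and methylation level (red points, %) in windows of 250 bp along the 4 longest valleys and 5000 bp on each side. Windows with under 3 such CpGs are not drawn. Most windows between the black lines, which mark the ends of each valley, have a low level, but some are higher, such as 44.4% near the right end at Dmrta2, 46.9% in the last window at Skor1 and 24.4% in the first at Pax9. Coverage varies from window to window.

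Gene starts in valleys included many of developmental regulators and none of the housekeeping genes examined. Of 8986 genes with a placed autosomal promoter, 369 had a start inside a valley, or 4.11%, and 5303 in a shorter region, or 59.0%. Of the 106 placed genes on 11 lists of developmental transcription factor families, 52 lay in valleys, or 49.1%, and 47 in shorter regions. Genes known for other roles were not taken out of these lists. The 5 housekeeping lists were drawn by gene name (ribosomal proteins, mitochondrial ribosomal proteins, proteasome, translation initiation factors and RNA polymerases). Of their 166 placed genes, 0 lay in a valley, which allows a share of up to 1.81%, and 96 lay in shorter regions. Among the 166 are 13 genes that share such a name but are known for other roles, such as the kinase genes Rps6kb1 and Eif2ak4 and the meiotic recombination gene Psmc3ip. Without these, 0 of 153 genes lay in a valley, which allows up to 1.96%, and 89 in shorter regions. Of the 245 names on the factor lists, 163 had a promoter in the RefSeq table, against 245 of 245 on the housekeeping lists. The placed genes were those among them with CpG-dense, well covered promoters, so these are shares of such genes and not of all members. Promoters of chromosome 18 were not used here.

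Homeobox genes were the most numerous of the listed genes in valleys, and also of the placed genes on the factor lists. Shares of the homeobox lists ran from 33.3% (Hox) to 71.4% (Nkx), against 49.1% over all 11 factor lists. In valleys lay 13 of the 25 placed genes of a mixed homeobox list, 5 of 7 Nkx genes, 4 of 8 LIM homeobox genes and 4 of 12 Hox genes. The valley of Irx3, which patterns the neural tube, spanned 6742 bp with a mean of 5.26 reads per listed CpG. Those of the neural genes Pou3f3, Gsx1 and Tlx3 spanned 6735 bp, 6651 bp and 5784 bp, with means of 6.46, 5.11 and 4.98 reads. The valley of Lmx1b, needed for dorsal limb identity, spanned 6155 bp (mean 5.15 reads). The Nkx valleys ran from 5800 bp at Nkx6-2 to 3778 bp at Nkx1-2. Nkx6-1 and Nkx2-2, both factors of ventral neural tube and pancreas, lay in shorter regions of 2761 bp and 1535 bp.

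The other factor families had members both in valleys and, Zic and Gli genes included, outside them. Of 5 placed paired box genes, 4 lay in valleys. These were Pax9, Pax1 of the vertebral column (5236 bp), Pax6 of the eye (4932 bp) and Pax5 of B cells (4585 bp), while Pax2 of the kidney lay in a region of 2637 bp. Of 12 forkhead genes, 8 lay in valleys, from Foxb2 down to Foxd2 at 3065 bp, and these included Foxl2 of the ovary (6736 bp) and Foxa2 of the endoderm (3523 bp). Of 18 bHLH genes 6 did, among them Olig2, Hand2 of the heart (5292 bp), the neurogenic factor Neurog2 (4245 bp) and Tal1 of blood formation (3841 bp). Of the 5 placed T-box genes 3 did, Eomes (4442 bp), Tbx1 (3245 bp) and T (3047 bp), which marks mesoderm. Sox2, a pluripotency and neural stem cell factor, had a valley of 4243 bp, and Sox14 one of 4760 bp, among 5 Sox genes. Gata3, a factor of T cells, had one of 7091 bp with 7.78 ± 3.91 reads (SD over 318 CpGs), and Gata5 and Gata2 lay in regions of 1940 bp and 1510 bp. Of 6 Zic and Gli genes, Zic1 (4633 bp) and Zic5 (3503 bp) lay in valleys.

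Of the 30 placed genes on 3 lists of WNT, FGF, BMP and hedgehog family names, 7 lay in valleys, or 23.3%. Most encode secreted signals that pass patterning information between cells of the embryo. Fgf12 and Fgf14 encode intracellular relatives, and without them 7 of 28 lay in valleys, or 25%. Wnt1, a signal of the midbrain, had a valley of 3591 bp with a mean of 8.13 ± 3.88 reads (SD over 207 CpGs), and Wnt11, Wnt7a and Wnt2 had valleys between 3305 bp and 3139 bp, so that 4 of 11 placed WNT genes did. Of 11 FGF genes, or 9 without Fgf12 and Fgf14, Fgf9 (7232 bp) and Fgf5 (3514 bp) lay in valleys, and of 8 BMP and hedgehog genes Bmp6 (3165 bp). Of 5 placed genes of spermatid function, 0 lay in a valley and 4 in shorter regions. With 5 genes a count of 0 allows a share of up to 60%.

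Below 3000 bp, too, the regions of the factor genes had the greater median length. Over the 47 shorter regions with a factor gene the median length was 2095 bp, against 1346 bp over the 96 with a gene of the housekeeping lists (1356 bp over 89 without the genes of other roles) and 1486 bp over all 4492 with a placed gene. For coverage, the valleys of factor genes are part of the valleys of all placed genes, so their range must lie inside that of the whole set. The median over the 52 valleys of factor genes was 5.61 reads per listed CpG (range 4.02 to 8.67), against 5.43 (3.82 to 9.27) over the 304 valleys of all placed genes, each gene counted at 1 start.

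**Figure D2:**
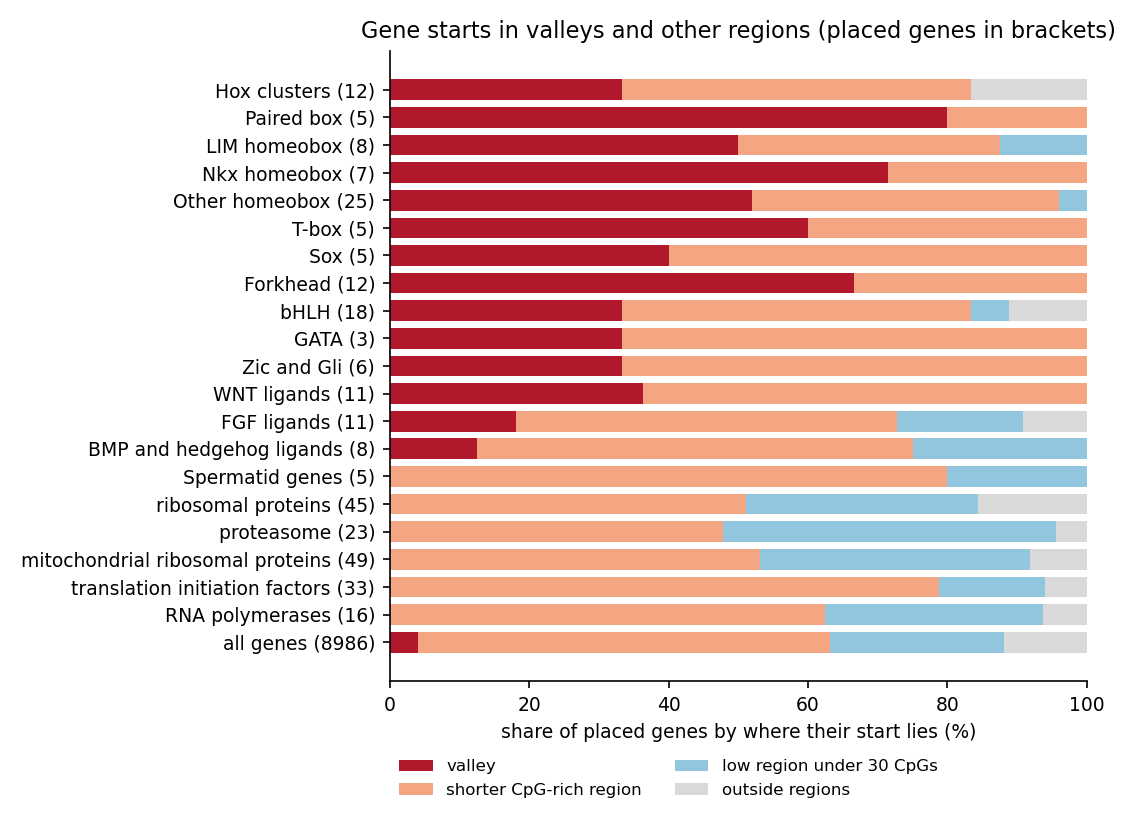
Share of placed genes (%, number placed in brackets) whose start lies in a valley, in a shorter CpG-rich region, in a region of low methylation with under 30 CpGs, or outside regions, for each gene list and for all placed genes. The valley share is 4.11% over all genes, 80% for paired box genes (4 of 5) and 0 for the 5 housekeeping lists and the spermatid genes.

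In all, 305 of the 636 valleys held a placed promoter, 274 of them one of a protein-coding gene, and 59 valleys held a gene of the 14 developmental lists. The 369 genes comprised 285 protein-coding and 84 lncRNA genes, and 12 valleys held 2 or more protein-coding genes. The lists thus name a small part of the valleys, and the 331 valleys without a placed promoter may still hold gene starts that could not be placed. Valleys with a placed promoter had 5.57 ± 0.87 reads per listed CpG (SD, 305 valleys) and a median of 5.42 listed CpGs per 100 bp. Those without had 5.45 ± 0.977 reads (SD, 331 valleys) and 4.58 CpGs per 100 bp.

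Some valleys stood side by side. With neighbours joined across up to 100 kb, 506 valleys were alone and 130 lay in groups, 50 of them pairs and 8 larger groups. No like count for shorter regions is given here. A longer gap or a CpG that is not low ends a valley, so some groups may be 1 stretch cut by the rule. The pair at Pax1, for example, had 8.74 kb in valleys within 9.25 kb. The largest group, of 6 valleys on chromosome 6 from 52112745 to 52196667, lay at the HoxA genes. Its valleys spanned 3140 bp to 3713 bp, and 2 held placed promoters, Hoxa5 and Hoxa11 with its antisense RNA Hoxa11os. Mean coverage in them ran from 3.97 to 6.63 reads per listed CpG. A group of 5 on chromosome 2 from 74516936 to 74588734 held Hoxd11, at 5518 bp with 4.02 reads, and Hoxd9, at 3365 bp with 6.47 reads. Hox genes order the body axis and lie in clusters. The third group was at Pax6, with 4 valleys on chromosome 2 from 105499450 to 105524198 that summed to 14.4 kb of unmethylated DNA within 24.7 kb. Groups of 3 lay at Zic1 on chromosome 9, at Sox1ot, a transcript overlapping the neural factor gene Sox1, on chromosome 8, and at Tbx3os1, an antisense RNA of the T-box gene Tbx3, on chromosome 5.

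The valleys covered 2.57 Mb. Their median length was 3618 bp (quartiles 3284.5 and 4339 bp), 214 reached 4000 bp, 103 reached 5000 bp and 3 spanned 10123 bp or more. The limit of 3000 bp cuts through a continuous range, with 65 valleys less than 100 bp above the limit and 80 regions at most 100 bp below it. Just inside were regions of 3000 bp on chromosome 18, with 6.06 reads per listed CpG, of 3002 bp at Sgms1, with 5.35 reads, and of 3002 bp on chromosome 2, with 5.76 reads. Just outside were those of Jade1 at 2999 bp, with 5.42 reads, one of 2998 bp on chromosome 3 with 5.48 reads, and that of Samd5 at 2997 bp with 7.12 reads.

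Coverage of valleys and of shorter regions differed by less than the spread between chromosomes. The mean was 5.51 reads per listed CpG in valleys, 5.53 in shorter regions and 3.06 in the autosomal CpGs outside every region. The ratio of valleys over shorter regions was 0.997 ± 0.034 (SD over 19 autosomes). The ratio of valleys over the rest was 1.8 ± 0.0842. The rule needs CpGs of 5 or more reads, and how much of that excess comes with it was not tested. In a call that admitted every listed CpG and took the running level over 11 CpGs, both changed together, the ratio was 1.61. Among autosomal CpGs at or below 19 reads, valleys held 0.87% of the sites and 1.47% of the reads.

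The mean over single valleys was 5.51 ± 0.929 reads per listed CpG (SD, 636 valleys), with quartiles of 4.91 and 6.01 and extremes of 3.26 and 10.6. Shorter regions had 5.62 ± 1.14 reads (SD, 8636 regions). Over the 635 valleys with 30 or more such CpGs, Spearman's rho of coverage was 0.00801 with length and 0.0339 with listed CpGs per 100 bp, with Pearson's r of 0.036 and -0.0141. These are descriptions over regions of 1 library. Valleys of 5000 bp or more had 5.59 ± 0.789 reads (SD, 103 valleys) and those under 3500 bp had 5.52 ± 0.951 (SD, 270 valleys).

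**Figure D3:**
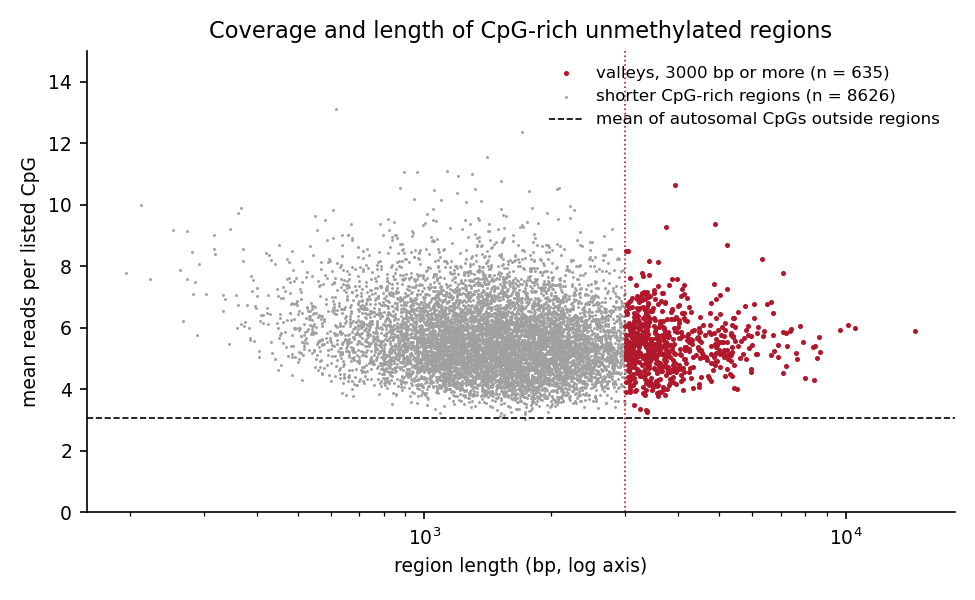
Mean reads per listed CpG against length (bp, log axis) for valleys (red, 635 with 30 or more CpGs of up to 19 reads) and shorter CpG-rich regions (grey, 8626). The dashed line is the mean of autosomal CpGs outside regions, 3.06 reads, and the dotted line marks 3000 bp. The red cloud lies at the same height as the grey one and wholly above the dashed line.

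CpGs were sparser in valleys. The median was 5.05 listed CpGs per 100 bp in valleys (quartiles 4.01 and 6.12) and 6.64 in shorter regions (5.27 and 8.39), a ratio of 0.761 ± 0.0651 (SD over 19 autosomes). The rule asks for 30 CpGs whatever the length, and its part in this difference was not tested. In the call that admitted every listed CpG with a running level over 11 CpGs the ratio was 0.987. The densest valley, of 3061 bp on chromosome 4 from 8616758 to 8619818, had 11.2 listed CpGs per 100 bp. The valley of Arid1b, a subunit of the SWI/SNF remodelling complex, had 10.4.

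Coverage inside valleys was higher where listed CpGs were denser. A CpG with no read is not listed, so this density itself depends in part on coverage, and how much was not tested. With density counted as the number of listed CpGs in the 100 bp to the left and right plus the CpG itself, the mean was 4.54 reads at 1 or 2 CpGs, 5.01 at 6 to 9, 5.58 at 15 to 19 and 6.49 at 25 or more. Shorter regions covered a narrower range, with 4.84, 5.05, 5.31 and 6.18 reads in the same classes. The ratio of valleys over shorter regions was 0.938 ± 0.0591 (SD over 19 autosomes) at 1 or 2 CpGs, with valleys higher on 2 of 19 autosomes. It was 1.05 ± 0.0722 at 15 to 19 CpGs, 1.06 ± 0.0515 at 20 to 24 and 1.05 ± 0.0342 at 25 or more, with valleys higher on 16, 18 and 18 autosomes. Over all CpGs with 15 or more it was 1.03 ± 0.0386, within the spread between chromosomes. This pooled ratio is not at like density. Of the listed CpGs, 15.7% in valleys and 29.6% in shorter regions lay at 25 or more.

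Within valleys coverage spanned a wider range than between whole valleys, whose central 90% lay between 4.13 and 7.06 reads. A window holds fewer CpGs than a valley, and how much of this is counting error was not tested. Of 4339 windows of 500 bp with 10 or more CpGs of up to 19 reads, the central 90% lay between 3.04 and 8.32 reads per listed CpG, with a median of 5.16. Above the mean of the rest of the autosomes lay 4112 windows, or 94.8%. In 432 of the 624 valleys with 4 or more such windows every window did. The rule needs CpGs of 5 or more reads at most 500 bp apart. How much of these 2 counts comes with it was not tested. The best covered window of a valley had 2.08 times the coverage of its poorest (median over the 624).

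The middle of valleys, the second of 3 equal parts of their length, had 5.59 reads per listed CpG and the parts within 500 bp of an end 5.18, a ratio of 1.08 ± 0.0591 (SD over 19 autosomes), above 1 on 17 autosomes. CpG density moved with position, at a median of 16 listed CpGs within 100 bp in the middle and 10 near the ends. At like density the ratio was 1.0 at 6 to 9 CpGs, 1.02 at 10 to 14, 1.0 at 15 to 19 and 1.02 at 20 or more, and 1.08 at 3 to 5. At matched density of 6 CpGs or more, middle and ends thus differed by less than the spread between chromosomes of the unmatched ratio.

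Methylation at the ends was read at CpGs of 1 to 4 reads, which the rule did not use, though they can share reads with called CpGs. It was 3.51% between 1400 and 1500 bp inside a valley, 5.80% between 400 and 500 bp and 13.8% within 100 bp of the end. Outside, it was 17.7% within 100 bp, 38.0% between 400 and 500 bp, 50.2% between 1000 and 1500 bp and 58.5% between 4500 and 5000 bp. Around regions of 1000 bp to under 3000 bp it was 70.6% and 73.5% at the last 2 distances, and it was 85.4% in the rest of the autosomes. Valleys were thus set in less methylated surroundings. Another region of low methylation lay within 1000 bp of 192 valleys, or 30.2%, and of 1158 shorter regions, or 13.4%. In 223 valleys the 1000 bp on at least 1 side had a level under 20%, so in these the DNA beyond a called end was also little methylated.

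**Figure D4:**
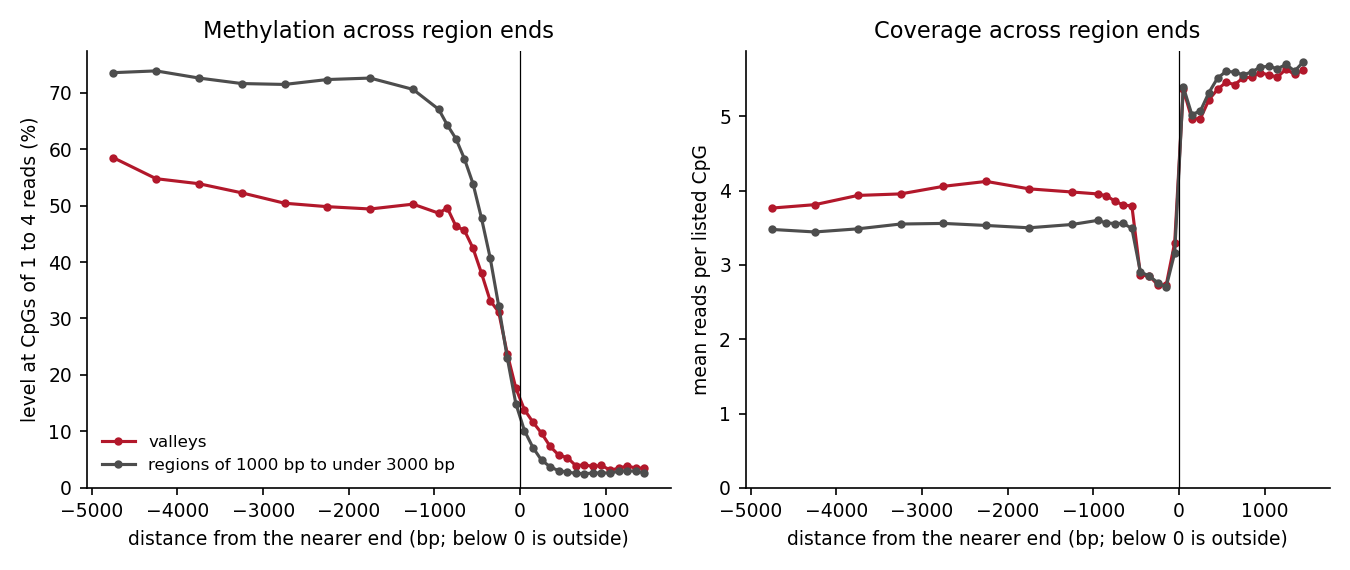
Methylation level at CpGs of 1 to 4 reads (left, %) and mean reads per listed CpG (right) by distance from the nearer region end (bp, values below 0 lie outside), for valleys (red, 636) and CpG-rich regions of 1000 bp to under 3000 bp (grey, 7023). Outside, valleys stay at 50.2% between 1000 and 1500 bp, against 70.6% for the others. The rule sets a read minimum and a gap limit of 500 bp. Its part in the coverage steps at the end and 500 bp outside it was not tested.

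Coverage was higher downstream of gene starts than upstream. In the 236 valleys with a single protein-coding start, the 600 bp downstream had 6.13 reads per listed CpG and the 600 bp upstream 5.23, a ratio of 1.17 ± 0.142 (SD over 18 autosomes), above 1 on 17 of them. At 15 to 24 listed CpGs within 100 bp it was 1.17 ± 0.147, above 1 on 16 of 18. In 3540 shorter regions with a single such start the values were 5.84 and 5.16 reads, a ratio of 1.13 ± 0.0298, above 1 on all 18. In valleys the 200 bp just downstream had 6.00 reads and the 200 bp just upstream 5.01, at mean densities of 21.3 and 20.4 listed CpGs. Valleys reached further on both sides of a start, with a median of 2184.5 bp downstream and 1610.5 bp upstream, against 857 and 542.5 bp in shorter regions. The longer side was downstream in 64.4% of valleys and 73.5% of shorter regions.

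**Figure D5:**
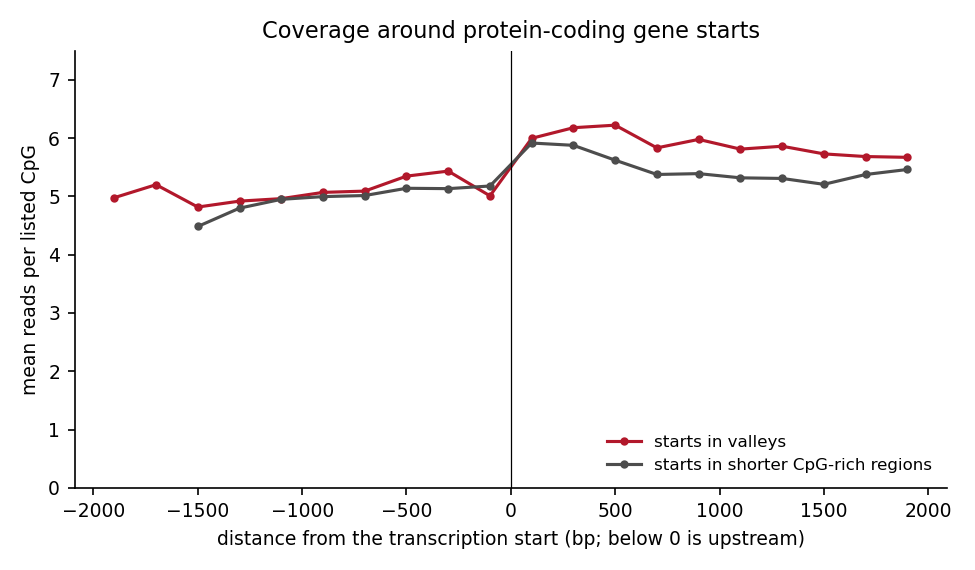
Mean reads per listed CpG in bins of 200 bp by distance from the transcription start (bp, below 0 is upstream), for single protein-coding starts in valleys (red, 236) and in shorter CpG-rich regions (grey, 3540). Only CpGs of the region that holds the start enter, and bins with under 500 CpGs are not drawn; in valleys the value is 6.00 just downstream and 5.01 just upstream.

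Promoters in valleys were, like those in shorter regions, rich in CpGs. The 320 distinct coding starts in valleys had a median of 24 CpGs in 300 bases and a GC content of 64.7%, against 27 CpGs and 65.7% for 5255 starts in shorter regions. The GC box GGGCGG, on either strand, occurred in 74.4% of the valley promoters, 76.1% of those in shorter regions and 46.6% of all 21006 coding promoters in the RefSeq table. CCAAT occurred in 33.8%, 32.6% and 38.2%. TATAAA occurred in 9.06%, 4.47% and 12.5%. Placing required 10 CpGs, which selects GC-rich promoters in the 2 placed sets, and these are matches of letters only.

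Coverage of neighbouring CpGs was described by its correlation over pairs of the same region, since nucleosomes protect stretches of DNA as units. Pairs were pooled over regions, so differences in coverage between regions enter the values. Their part was not tested. The correlation of CpG pairs of the same valley was 0.832 at 1 to 20 bp, where a single read often covers both CpGs. It was 0.179 at 41 to 60 bp, 0.219 at 81 to 100 bp, 0.0481 at 201 to 220 bp and 0.0718 at 261 to 280 bp. Shorter regions gave 0.815, 0.118, 0.188, -0.00337 and 0.0457. The second maximum near 90 bp stood 0.0401 above the minimum before it in valleys, with an SD over autosomes of 0.0573 and a positive value on 17 of 19. In shorter regions it stood 0.0695 ± 0.0154 above, on all 19. In valleys this step was thus within the spread between chromosomes, which hold as few as 9 valleys each.

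Methylation inside valleys was low also at CpGs with too few reads to enter the call. These CpGs lie between called ones and can share reads with them, so their level is not independent of the call. At the 58534 CpGs of 1 to 4 reads in valleys the pooled level was 4.77% (Wilson interval 4.67 to 4.88), against 3.85% (3.81 to 3.89) in shorter regions and 85.4% in the rest. In 572 of the 634 valleys with 30 or more such reads it was under 10%. Of the 74145 CpGs of 5 or more reads, which made the call and whose pooled level with their neighbours was thus under 50%, 534, or 0.72%, had a level of 50% or more, and 7 had 90% or more. These lay in 322 valleys, with at most 6 in 1 valley.

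A few valleys were more methylated. The valley of Hoxa5, a patterning gene of the HoxA cluster, had a level of 26.5% at its CpGs of 1 to 4 reads (219 reads) and 14.3% at the CpGs that called it. One on chromosome 14 from 105898547 to 105902415 had 31.6% (57 reads), one on chromosome 12 from 72008334 to 72012293 had 26.1% (69 reads) and one on chromosome 7 from 28148846 to 28151855 had 39.3% (56 reads). The CpGs that called these valleys on chromosomes 14, 12 and 7 had 14.8%, 23.3% and 12.0%. The highest level at CpGs of 1 to 4 reads, 51.4% (37 reads at 13 CpGs), belonged to the valley on chromosome 17 described next. Its 560 calling CpGs had 11.1%.

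A single valley stood apart by depth. On chromosome 17 from 39979946 to 39985767, a valley of 5822 bp had 552 of its 573 listed CpGs above 19 reads and a mean of 375 reads per CpG without a limit. It held 22.5% of all reads in valleys. With no limit on reads the mean was 7.2 reads per CpG over all valleys and 5.60 without this one, against 5.68 in shorter regions. The ratio of valleys over shorter regions without a limit was 1.27 with this valley and 0.985 without it. With the limit of 19 reads it was 0.997 in either case. In 97.5% of valleys at most 10 CpGs exceeded 19 reads. Whether the reads of this valley stem from repeated sequence was not tested.

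The best covered valley by CpGs of up to 19 reads lay on chromosome 16 from 76291804 to 76295729, with 10.6 ± 4.43 reads (SD over CpGs) and a level of 25.9%, the highest of any valley at its calling CpGs. Next were a valley on chromosome 3 from 93247167 to 93252049 with 9.36 ± 4.35 reads, that of Cyp1b1, a cytochrome P450 gene, with 9.27 ± 4.0, that of Pax1 with 8.67 ± 4.09 and that of the kinase gene Map3k21 with 8.5 ± 4.53. The poorest covered were on chromosome 11 from 69391767 to 69395132, with 3.26 ± 2.01 reads, chromosome 15 from 84683905 to 84687281, with 3.29 ± 2.0, and chromosome 7 from 29593444 to 29596799, with 3.33 ± 2.11. The last 2 of the lowest 5 lay on chromosome 7 from 140313298 to 140316537 (3.35 ± 2.04) and chromosome 8 from 73133191 to 73136342 (3.50 ± 2.33). These 5 lay close to the 3.06 reads of the rest of the autosomes, and all had levels under 3% at the CpGs that called them.

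Every autosome held valleys. Chromosome 5 had most, at 54, and chromosome 16 fewest, at 9. Per 10 Mb of listed sequence the number was 2.68 ± 0.836 (SD over 19 autosomes), with the highest values on chromosomes 19 and 11, at 4.29 and 4.04, and the lowest on chromosome 16, at 0.945. Valleys made up 6.88% ± 1.62 of the CpG-rich regions of a chromosome. Their mean coverage was 5.54 ± 0.218 reads and their level at CpGs of 1 to 4 reads 4.77% ± 0.531. The X chromosome, which the rule leaves out and which only part of the sperm carry, had 36 CpG-rich regions by the same call, the longest of 2731 bp, and so 0 valleys.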

How the data were processed

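The deposited table holds 2 raw counts at every listed CpG, per the file headers: total reads and methylated reads. The submitters' processing notes name Bowtie and mm9; alignment settings, conversion rate and the treatment of PCR copies were not found in labels or headers. Reads that span several CpGs enter each of them, and PCR copies are not independent, so Wilson intervals and limits of 3 counts cover counting error only.

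Regions were called as given above. Coverage is the mean of the listed CpGs inside a region, those above 19 reads left out, and the level is methylated over all reads. CpGs of 1 to 4 reads did not enter the call. No p-value is given, since 1 library was analysed. No annotation on mm9 was used, so exons and introns are not assigned. Promoters from RefSeq (32851 promoters of 27025 genes, GRCm38.p6) were placed by CpG spacing: 10 or more CpGs, 90% of them listed, no listed CpG that the sequence lacks, 1 place in the table and the chromosome RefSeq gives. The sequences are RefSeq's, and only their CpG positions were matched to mm9.

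Named valleys are the 10 longest, the 5 best and 5 poorest covered, the 5 with the highest level at CpGs of 1 to 4 reads, the 3 nearest the length limit on each side and the groups with most valleys; from each gene list, up to 6 members by length of their valley. The densest valleys, the deepest one, some smaller groups and list members beyond the sixth were named after their values were seen. Genes of other roles were taken from the housekeeping and ligand lists by known function, after their values were seen. The members and lists were chosen with earlier results of these data known. Alternatives were other read minimums, running windows, thresholds, gaps, lengths, limits on coverage and placing rules. The scripts, tested on simulated data, ran under Python 3.11.15 with scipy 1.17.1, pandas 2.3.3, numpy 2.4.6 and matplotlib 3.10.9.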

Additional observations from a re-analysis of the deposited data

How the results depend on the processing

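No paired analysis was possible because valleys were called in 1 library with no replicate. Of 100 alternative values, 70 stayed within 1 SD over the autosomes of the main value, 30 moved further and 0 reversed. For counts the limit was 1.5 times the main value. For shares of listed genes it was the Wilson interval of the main share, which is 39.7 to 58.4% for factor genes. A ratio that crossed 1 was not counted as reversed where its main value lay within 1 SD of 1. This was so for coverage over shorter regions (main ratio 0.997 ± 0.034), which became 1.01 with a minimum of 4 reads. For such ratios the count of 0 reversed carries no information. Placing with 75% of the CpGs listed, the share of factor genes under all settings, the lists without genes of other roles and the removal of the deepest valley were chosen after seeing the data.

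How many valleys there are depends on the call. The 636 became 963 and 162 with a minimum of 4 and 7 reads, 2483 with 1 read and a running level over 11 CpGs (both changed together, and called 1 read here), 157 and 1363 with gaps of 300 and 1000 bp, and 1204 and 103 with limits of 2500 and 5000 bp. The share of factor genes in valleys, 49.1% in the main call, moved with the number of valleys, in each case above the share of all placed genes. It was 64.2% (6.42% of all genes) and 18.9% (1.21%) with 4 and 7 reads, 84.9% (15.7%) with 1 read, 20.8% (1.11%) and 73.6% (8.95%) with gaps of 300 and 1000 bp, and 62.3% (8.07%) and 15.1% (0.779%) with 2500 and 5000 bp.

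The ratio of coverage over shorter regions became 1.03 with 1 read, 0.957 with a gap of 1000 bp and 1.27 with no limit on coverage; at 15 or more CpGs it became 1.51 with no limit. The ratio over the rest became 2.0 with 7 reads, 1.61 with 1 read, 1.96 and 1.68 with gaps of 300 and 1000 bp and 1.91 with no limit. The level at CpGs under the minimum became 4.05% with 7 reads, 3.68% with a threshold of 30%, and 4.0% and 5.92% with gaps of 300 and 1000 bp. The ratio of middle over ends became 1.27 with 1 read. The ratio of CpG density became 0.677 with 7 reads and 0.987 with 1 read. For these the cause was not tested, except that without the deepest valley the ratio over shorter regions with no limit was 0.985.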
